A study of Mus musculus with 4 samples.

Results

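Lysosomes are acid-filled organelles that break down proteins, glycans and lipids with a set of hydrolases, and autophagy delivers the cell's own organelles and protein aggregates to them inside double-membraned vesicles. A proton pump, the V-ATPase, keeps the lysosome acidic, and the transcription factors TFEB and TFE3 switch on many lysosomal and autophagy genes through a short promoter element. In the liver both hepatocytes and resident macrophages (Kupffer cells) are rich in lysosomes, and autophagy in hepatocytes clears lipid droplets, mitochondria and the aggregates that gather under alcohol. The genes described here are 38 members of this system, listed by name and role. Earlier results of these data were known when the list was made. The list holds 9 proteases, 10 proteins of glycan and lipid breakdown and 5 lysosomal membrane proteins. It also holds 4 proteins of the proton pump, the 2 transcription factors and 8 autophagy proteins. Each of the 38 had an entry among the 22103 of the deposited expression table, and all 38 passed the filter on low values.

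The study asked what depletion of Smarca4 does to gene expression in alcoholic liver disease. Smarca4 encodes Brg1, the ATPase of the SWI/SNF (BAF) chromatin remodelling complexes. RNA-seq was made from whole liver of 2 WT and 2 KO samples of Mus musculus, and every mouse, WT included, drank alcohol for 15 days, so no unexposed liver was compared. Per the study's methods the KO is a hepatocyte knockout (Smarca4 f/f crossed with Alb-Cre, in which the albumin promoter drives Cre), the WT were littermates and the mice were 8-week-old males. Whether the WT littermates carried the floxed allele without Cre is not given in the sources used here. Alb-Cre leaves Smarca4 in the macrophages, endothelial cells and stellate cells that a piece of liver also holds. By the study's description the libraries came from 2 WT mice and 2 KO mice.

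Values are FPKM, the fragments of a transcript scaled to its length and to the mapped fragments of the library, which is a level per length and can be compared between genes. The targeted gene Smarca4 measured 1.78 and 1.95 FPKM in the WT libraries and 0.608 and 0.579 FPKM in the KO libraries, a KO mean of 31.8% of the WT mean. Estimated depth was 72577642 to 80903094 reads per library, and the least expressed member still rested on about 69.0 estimated reads in its lowest library. The hepatocyte marker Alb was the same order in all libraries (10710 to 12486 FPKM), and no gene of the 10 hepatocyte markers passed the test. Libraries numbered 2 ran higher than those numbered 1 in both genotypes: WT replicate 2 exceeded WT replicate 1 for 80.3% of the 12346 genes tested, and KO replicate 2 exceeded KO replicate 1 for 73.2%. Rescaling factors computed from the median ratio of the genes detected in every library were 0.912 and 1.13 for WT and 0.884 and 1.11 for KO.

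The members were, as a class, well expressed, and 37 of the 38 did not pass the test between the genotypes. Mean levels reached at least 1 FPKM for 37 of the 38 genes, at least 10 FPKM for 18 and at least 50 FPKM for 6, and 33 of them lay in the upper part of the genes tested by mean level (at or above percentile 50). Together they made up 838 and 1094 FPKM in the WT libraries and 1041 and 1007 FPKM in the KO libraries, or 0.190% and 0.230% against 0.242% and 0.238% of each library's total FPKM. WT replicate 1 was the lowest of the 4 in this sum, and the other 3 libraries lay close together. After rescaling by the median ratio the sums were 920 and 968 in WT and 1177 and 907 in KO, so the KO libraries enclosed the WT values.

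**Figure D1:**
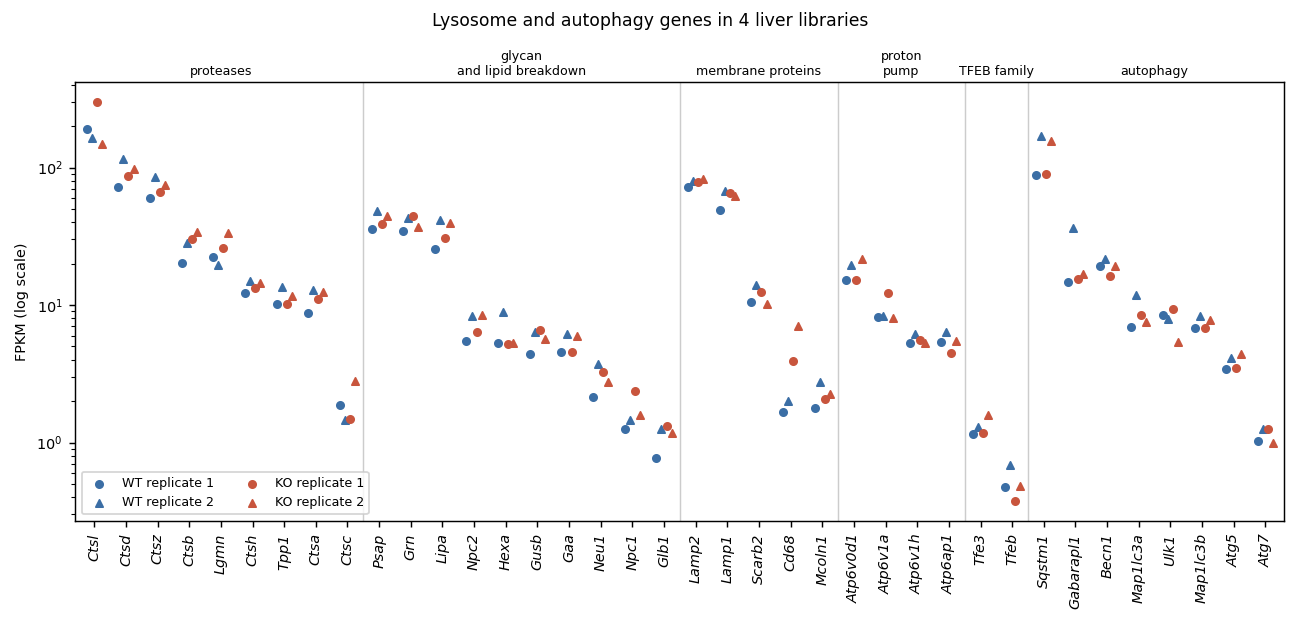
FPKM on a log axis for each of the 38 genes in each of the 4 libraries, blue for WT and red for KO, circles for replicate 1 and triangles for replicate 2, ordered within each role by mean level. Red and blue symbols overlap for 32 of the 38 genes, and Cd68 stands out with both KO values (3.90 and 7.01 FPKM) above both WT values (1.66 and 2.01 FPKM).

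One gene of the 38, Cd68, passed the study's threshold, an unadjusted p under 0.05 with a log2 fold change above 1 or below -1. The study applied this threshold to DESeq on read counts, whereas here it was applied to limma on FPKM. Cd68 was higher in KO, and no member was called lower. Over all genes tested 0.98% were called, 0.437% higher and 0.543% lower, so 1 member of 38 is near that background. An unadjusted p under 0.05 was found for 1 member and for 2% of all genes, and a Benjamini-Hochberg adjusted p under 0.05 from limma was found for none of the members and for 0% of all genes. The estimated log2 fold change, KO minus WT on the log2(FPKM + 0.1) scale, was above 0 for 22 members and below 0 for 16, with a median of 0.05 against -0.02 over all genes. It lay within 0.5 of 0 for 36 members, where 90.2% of all genes did too.

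**Figure D2:**
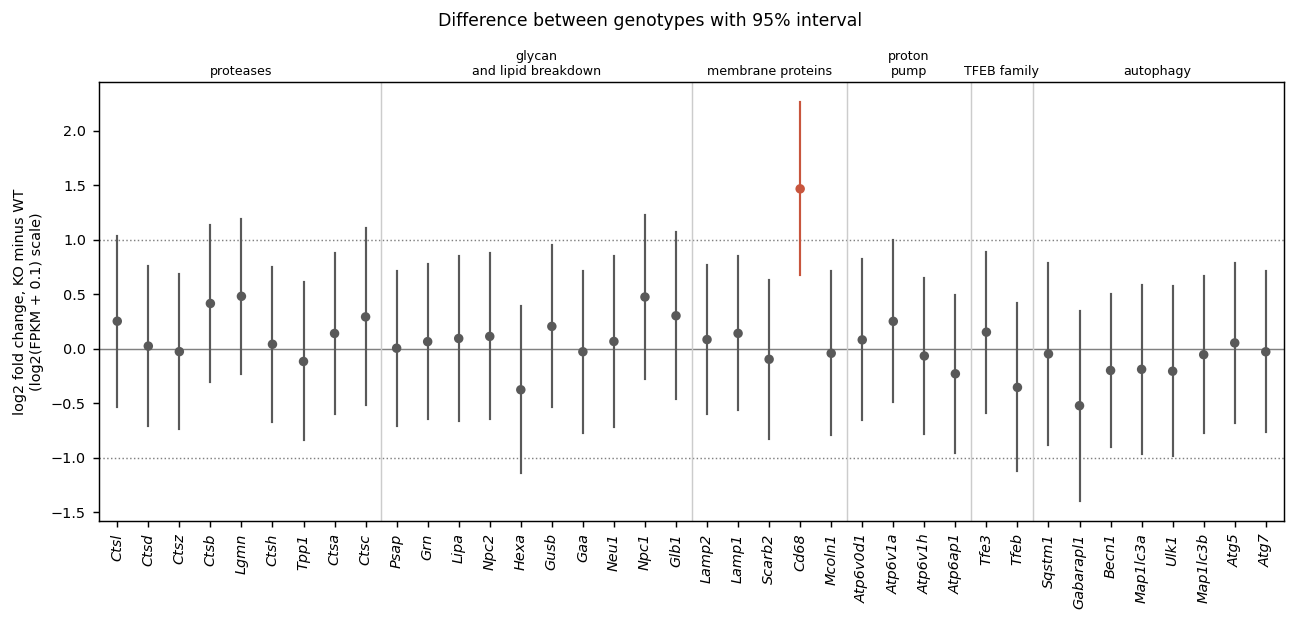
Log2 fold change of each gene (KO minus WT, log2(FPKM + 0.1) scale) with its 95% interval from limma, Cd68 in red and all genes that did not pass the threshold in grey, with dotted lines at 1 and -1. The interval of Cd68 runs from 0.67 to 2.26, and the other 37 intervals include 0.

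What the design could see is set by the width of these intervals, which reached a median of 0.74 to either side of the estimate on the log2 scale. For 28 of the members the whole 95% interval lay between -1 and 1, so a 2-fold difference in either direction fell outside it. Intervals of 7 members reached above 1, Cd68 among them, and those of 3 reached below -1, and over the uncalled members the bounds ran from -1.39 to 1.23. Differences inside these bounds could not be shown with 2 libraries per genotype. For 36 of the 38 members the difference between the group means was smaller than the larger of the differences between 2 replicates of the same genotype. This count was not made over all genes, and it holds for the FPKM as deposited. The median log2 difference between replicates was 0.30 for the members and 0.35 for all genes. After rescaling by the median ratio it was 0.20 and 0.25.

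The lysosomal proteases were the most abundant role, and none of the 9 passed the test. Estimates were above 0 for 7 and below 0 for 2, with a median of 0.14 on the log2 scale. Cathepsin L (Ctsl), a cysteine protease, was the most highly expressed member of all. Its level was 190.0 and 165 FPKM in WT and 299 and 149 FPKM in KO. The replicates of KO thus differed 2.01-fold and enclosed both WT values, and the log2 fold change was 0.25 (95% interval -0.53 to 1.04). Ctsl made up between 34.6% and 54.8% of the summed protease FPKM of a library, so KO replicate 1, where it was highest, also had the highest protease sum (545 FPKM, against 398 and 456 in WT and 430.2 in KO replicate 2).

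Cathepsin D (Ctsd), the major aspartic protease of the organelle, measured 71.9 and 115 FPKM in WT and 87.5 and 97.7 FPKM in KO, with the KO values between those of WT. Cathepsin Z (Ctsz), a carboxypeptidase, measured 60.5 and 86.0 FPKM in WT and 66.8 and 75.2 FPKM in KO. Here too the WT libraries were the outer ones, and the log2 fold changes of both genes were near 0 (0.02 and -0.03). Cathepsin B (Ctsb), a cysteine protease, measured 20.3 and 28.2 FPKM in WT and 30.1 and 34.0 FPKM in KO. Legumain (Lgmn), an asparaginyl endopeptidase that processes other cathepsins, measured 22.5 and 19.6 FPKM in WT and 25.9 and 33.3 FPKM in KO. Both Ctsb and Lgmn were without overlap between the genotypes, yet the gaps between the closest WT and KO libraries were small, and the log2 fold changes of 0.42 (95% interval -0.31 to 1.14) and 0.48 (-0.23 to 1.19) did not pass the test.

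None of the other 4 proteases passed the test either. Cathepsin H (Ctsh), an aminopeptidase, lay between 12.3 and 14.9 FPKM in all libraries. Tripeptidyl peptidase 1 (Tpp1), the enzyme lacking in a form of neuronal ceroid lipofuscinosis, lay between 10.1 and 13.6 FPKM. Cathepsin A (Ctsa), which protects neuraminidase and beta-galactosidase in a complex, lay between 8.72 and 12.8 FPKM. In each of these 3 genes the genotypes overlapped, and the log2 fold changes were 0.04, -0.12 and 0.14. Cathepsin C (Ctsc), which activates serine proteases of immune cells, was the least expressed protease, at 1.86 and 1.46 FPKM in WT and 1.48 and 2.82 FPKM in KO. Only KO replicate 2 was high, and its log2 fold change was 0.29 (95% interval -0.52 to 1.10).

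Of the 10 genes of glycan and lipid breakdown none passed the test, with 8 estimates above 0, 2 below and a median of 0.08. Prosaposin (Psap), the precursor of the saposins that present sphingolipids to their hydrolases, measured 35.8 and 48.3 FPKM in WT and 38.9 and 44.8 FPKM in KO. Progranulin (Grn), which is cleaved to granulins in the lysosome, measured 34.5 and 43.2 FPKM in WT and 44.5 and 36.7 FPKM in KO. Lysosomal acid lipase (Lipa), which hydrolyses cholesteryl esters and triglycerides, measured 25.7 and 41.3 FPKM in WT and 30.9 and 39.2 FPKM in KO. These 3 were the most abundant of the role, and the log2 fold changes were 0.01, 0.07 and 0.09 with overlapping libraries in each case.

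Cholesterol leaves the lysosome through the paired proteins Npc2, which is soluble, and Npc1, which sits in the membrane. Npc2 measured 5.52 and 8.26 FPKM in WT and 6.33 and 8.45 FPKM in KO. Npc1 measured 1.26 and 1.47 FPKM in WT and 2.36 and 1.58 FPKM in KO. The Npc1 libraries did not overlap, by the narrow margin between WT replicate 2 and KO replicate 2, and the log2 fold change was 0.48 (95% interval -0.28 to 1.23), which did not pass. Npc2 overlapped, with a log2 fold change of 0.11.

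Among the glycosidases, beta-hexosaminidase A (Hexa), which degrades ganglioside, measured 5.28 and 8.87 FPKM in WT and 5.24 and 5.27 FPKM in KO. WT replicate 2 alone was high, the other 3 libraries were nearly equal, and the genotypes were without overlap only by the very small gap between WT replicate 1 and KO replicate 2. Its log2 fold change was -0.38 (95% interval -1.14 to 0.39). Acid alpha-glucosidase (Gaa), which breaks down glycogen, measured 4.59 and 6.21 FPKM in WT and 4.58 and 5.98 FPKM in KO, almost the same pair of values in both genotypes. Beta-glucuronidase (Gusb) ranged from 4.40 to 6.58 FPKM, neuraminidase 1 (Neu1) from 2.14 to 3.75 FPKM and beta-galactosidase (Glb1) from 0.774 to 1.31 FPKM. WT replicate 1 was the lowest library in all 3, the other libraries overlapped, and the log2 fold changes were 0.21, 0.07 and 0.30.

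The lysosomal membrane proteins contained the called gene. CD68 (Cd68) is a heavily glycosylated relative of the LAMP proteins that macrophages carry in large amounts and that serves as a macrophage marker. It measured 1.66 and 2.01 FPKM in WT and 3.90 and 7.01 FPKM in KO. Both KO libraries lay above both WT libraries, and KO replicate 2 was the higher by 1.80-fold. WT libraries averaged 1.84 ± 0.253 FPKM (SD, n = 2), against a KO average 2.97-fold higher at 5.46 ± 2.20 FPKM (SD, n = 2). The log2 fold change was 1.47 with an SE of 0.37 (95% interval 0.67 to 2.26), at an unadjusted p of 0.00144 and a Benjamini-Hochberg adjusted p of 1.00 from limma. Over the alternatives in processing the log2 fold change ranged from 1.05 (without KO replicate 2) to 1.88 (without KO replicate 1). The listed transcript lies on chromosome 11 (GRCm38, 69664213 to 69666153, minus strand, 6 exons), and no other protein-coding gene of the annotation overlaps it.

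The other 4 membrane proteins did not pass. LAMP2 (Lamp2), which lines the lysosomal membrane and takes part in autophagosome fusion, measured 72.0 and 80.0 FPKM in WT and 78.3 and 82.7 FPKM in KO. LAMP1 (Lamp1), the other main membrane glycoprotein, measured 49.2 and 67.7 FPKM in WT and 65.4 and 62.1 FPKM in KO. The log2 fold changes were 0.08 (95% interval -0.60 to 0.77) and 0.14 (-0.57 to 0.85). Both intervals lay inside a 2-fold difference, while that of Cd68 reached beyond it. Scarb2 (LIMP2), the receptor that carries glucocerebrosidase to the lysosome, measured 10.5 and 13.9 FPKM in WT and 12.5 and 10.2 FPKM in KO. The calcium channel TRPML1 (Mcoln1) measured 1.78 and 2.74 FPKM in WT and 2.06 and 2.24 FPKM in KO. For both of these the genotypes overlapped, with log2 fold changes of -0.10 and -0.04.

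Cd68 and the summed macrophage markers were both higher in KO than in WT, and both were highest in KO replicate 2. The 14 macrophage markers summed to 56.1 and 55.1 FPKM in WT and to 69.0 and 152 FPKM in KO. All 14 were tested, none was at 0, every estimate was above 0 (median log2 fold change 0.76). Of these, 2 were called higher, Vsig4 and Cd5l (14.3%, against 0.437% of all genes). Vsig4 passed only narrowly (log2 fold change 1.002, unadjusted p = 0.0493 from limma). An unadjusted limma p under 0.05 was found for 6 (42.9%, against 2% of all genes). Both KO values were above both WT values for 10 of the 14, against 10.7% of all genes with that order. Most of the excess lay in KO replicate 2, as for Clec4f, a Kupffer cell lectin, at 10.7 and 10.9 FPKM in WT and 13.5 and 27.9 FPKM in KO. Adgre1, which encodes F4/80, was at 0.415 and 0.301 FPKM in WT and 0.382 and 1.12 FPKM in KO. Divided by the summed markers of its own library, Cd68 was 0.0296 and 0.0366 in WT and 0.0565 and 0.0462 in KO, so both KO ratios remained above both WT ratios. Without KO replicate 2 the log2 fold change of Cd68 was 1.05 and still past the threshold. From RNA of whole liver a change in the number of macrophages and a change of RNA per macrophage cannot be told apart. The study counted cells in knockout and WT livers under the alcohol feeding model. It reported F4/80+ macrophages as little affected by flow cytometry and as not distinguishable by staining.

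No marker of the other non-hepatocyte types was called. Of the 8 markers of recruited monocytes 3 passed the filter, 1 with an estimate above 0 and 2 below (median log2 fold change -0.06). The one above was Ly6c2, at 0.304 and 0.238 FPKM in WT and 0.282 and 0.925 FPKM in KO. The other 2 had both KO values below both WT values, an order found for 10% of all genes. Neutrophil markers summed to 11.8 and 4.50 FPKM in WT and 16.6 and 8.24 FPKM in KO, with 6 of 9 tested, 4 estimates above 0 and 2 below. S100a8 was 1.61 and 0.862 FPKM in WT and 3.13 and 1.19 FPKM in KO, and Ly6g, the defining neutrophil marker, was at most 0.0544 FPKM and listed at 0 in WT replicate 2. By flow cytometry and staining, which count cells and not RNA, the study reported fewer Ly6G+ neutrophils in the knockout livers. Sinusoidal endothelial markers summed to 37.3 and 38.1 FPKM in WT and 28.7 and 38.2 FPKM in KO (Stab2 1.78 to 3.19 FPKM). Estimates were below 0 for 9 of these 10 genes (median log2 fold change -0.25), while 46.1% of all genes had an estimate above 0. Both KO values were below both WT values for 2 of the 10, against 10% of all genes. Stellate cell markers summed to 94.5 to 125 FPKM (Lrat 0.313 to 1.08 FPKM), with 5 of 10 estimates above 0 and 5 below. The part of these cells in the levels of the 38 genes was not tested.

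**Figure D3:**
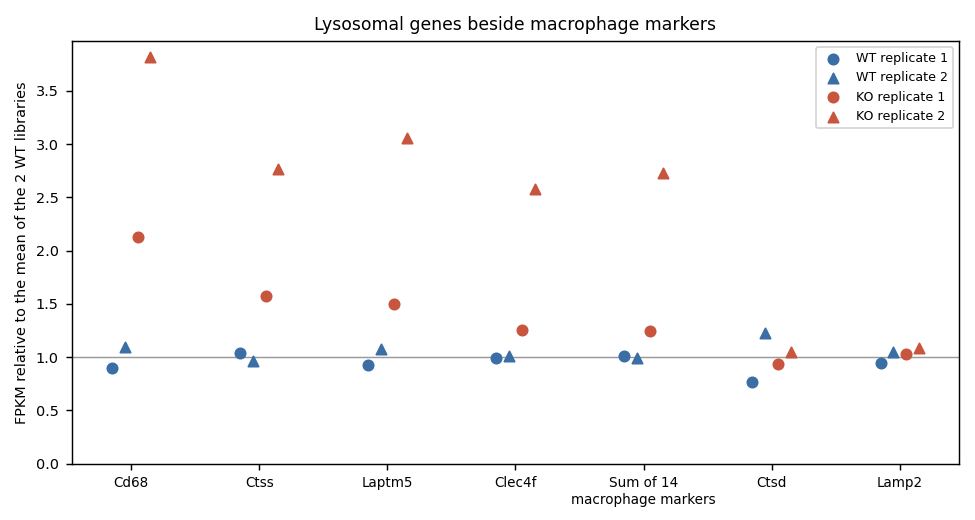
FPKM divided by the mean of the 2 WT libraries (axis from 0) for Cd68, for the lysosomal genes Ctss and Laptm5, for the macrophage marker Clec4f and the sum of 14 macrophage markers, and for Ctsd and Lamp2, with circles for replicate 1, triangles for replicate 2, blue for WT and red for KO. KO replicate 2 is highest in the columns from Cd68 to the marker sum, whereas the 4 libraries lie close to 1 for Lamp2.

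None of the 4 V-ATPase genes passed the test. Atp6v0d1, a subunit of the membrane sector, measured 15.1 and 19.4 FPKM in WT and 15.3 and 21.6 FPKM in KO. Atp6v1a, the catalytic subunit of the cytosolic sector, measured 8.25 and 8.30 FPKM in WT and 12.2 and 8.01 FPKM in KO, so that KO replicate 1 alone was high. Atp6v1h, a regulatory subunit, stayed between 5.25 and 6.16 FPKM. The accessory protein Atp6ap1 stayed between 4.50 and 6.37 FPKM. The log2 fold changes were 0.08, 0.25, -0.07 and -0.23 in that order, and all 4 intervals lay inside -1 to 1.

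The transcription factors of the system were the least expressed role. Tfeb measured 0.475 and 0.689 FPKM in WT and 0.377 and 0.482 FPKM in KO, and Tfe3 measured 1.15 and 1.29 FPKM in WT and 1.18 and 1.57 FPKM in KO. Their log2 fold changes were of opposite sign, -0.35 (95% interval -1.12 to 0.42) and 0.15 (-0.59 to 0.89), and neither passed the test. An mRNA level does not show how much of either protein is in the nucleus, which is how TFEB and TFE3 are mainly controlled.

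TFEB and TFE3 bind an E-box, CACGTG, which in its extended form TCACGTGA is the core of the CLEAR element of lysosomal genes. Promoter windows from RefSeq (GRCm38.p6, 250 bases before to 50 after a gene's start) matched 32 of the 38 members by symbol, and Atp6v1h, Becn1, Ctsb, Ctsh, Map1lc3a and Npc1 had no entry. Both strings read the same on either strand, and the longer holds the shorter. The shorter string was found in 12 of the 32 members (37.5%), against 8.09% of the 27025 genes with an entry, and the longer in 5 (15.6%), against 1.12%. The 5 were Atp6v0d1, Atp6v1a, Ctsa, Ctsd and Mcoln1. Shown here are the 140 bases before the start for 3 of these, for Lamp1, which held the most copies, and for Cd68, the called member, with the CACGTG or TCACGTGA letters in capitals. They are Atp6v1a at chr16:44139260-44139399 (minus strand), Ctsd at chr7:142387828-142387967 (minus), Mcoln1 at chr8:3500379-3500518 (plus), Lamp1 at chr8:13159021-13159160 (plus) and Cd68 at chr11:69666171-69666310 (minus).
Atp6v1a: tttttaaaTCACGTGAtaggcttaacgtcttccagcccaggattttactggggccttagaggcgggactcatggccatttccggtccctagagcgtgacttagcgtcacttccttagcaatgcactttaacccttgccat
Ctsd: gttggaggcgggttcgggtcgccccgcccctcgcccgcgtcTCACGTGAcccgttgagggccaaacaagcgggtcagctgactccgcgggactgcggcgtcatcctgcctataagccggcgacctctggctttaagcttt
Mcoln1: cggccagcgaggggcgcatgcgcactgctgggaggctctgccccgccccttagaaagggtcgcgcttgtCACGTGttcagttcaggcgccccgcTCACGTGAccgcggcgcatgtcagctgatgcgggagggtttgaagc
Lamp1: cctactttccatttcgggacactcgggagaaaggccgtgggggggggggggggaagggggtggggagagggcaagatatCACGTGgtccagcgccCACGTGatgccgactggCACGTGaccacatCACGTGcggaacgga
Cd68: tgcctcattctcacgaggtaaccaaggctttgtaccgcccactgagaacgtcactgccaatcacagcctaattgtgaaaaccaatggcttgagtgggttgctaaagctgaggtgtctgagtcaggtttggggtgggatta
The Lamp1 window holds 4 copies of CACGTG, the Mcoln1 window 1 CACGTG and 1 TCACGTGA, and the Cd68 window neither string. The start used for Mcoln1 lies 5260 bases from that of its listed transcript, while those of Cd68, Atp6v1a and Lamp1 lie within 46 bases. None of the 12 members with CACGTG was called, and their log2 fold changes ran from -0.04 to 0.48 with a median of 0.11, beside -0.01 for the 20 members whose window lacks it. A match of letters is a description of the sequence and says nothing of binding.

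None of the 8 autophagy genes passed the test. The estimate was above 0 for 1 and below 0 for 7, with a median of -0.12. The cargo receptor p62 (Sqstm1), which links ubiquitinated proteins to the autophagosome and is itself degraded there, was by far the most abundant of them. Its level was 88.6 and 169 FPKM in WT and 89.7 and 156 FPKM in KO. Replicates of the same genotype differed 1.90-fold in WT and 1.74-fold in KO, whereas libraries of the same number were close, and the log2 fold change was -0.05 (95% interval -0.88 to 0.79).

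Members of the Atg8 family, the ubiquitin-like proteins attached to the autophagosome membrane, were also overlapping between genotypes. Gabarapl1 measured 14.8 and 36.2 FPKM in WT and 15.3 and 16.9 FPKM in KO. WT replicate 2 stood 2.44-fold above WT replicate 1, which lay with the KO libraries, and the log2 fold change of -0.52 (95% interval -1.39 to 0.35) became -1.16 without WT replicate 1 and 0.12 without WT replicate 2. Map1lc3a (LC3A) measured 6.89 and 11.9 FPKM in WT and 8.42 and 7.47 FPKM in KO, again with WT replicate 2 the high library. Map1lc3b (LC3B) measured 6.84 and 8.31 FPKM in WT and 6.80 and 7.76 FPKM in KO, nearly the same pair in both genotypes. Their log2 fold changes were -0.19 and -0.05.

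The genes that start and extend the autophagosome did not pass the test either. Beclin 1 (Becn1), a subunit of the class III phosphatidylinositol 3-kinase complex, measured 19.2 and 21.5 FPKM in WT and 16.3 and 19.1 FPKM in KO. Both KO values were below both WT values, by a very small gap between WT replicate 1 and KO replicate 2, and the log2 fold change was -0.20 (95% interval -0.90 to 0.51). The kinase Ulk1 measured 8.46 and 7.95 FPKM in WT and 9.42 and 5.34 FPKM in KO, so the KO libraries were the outer ones. Atg5, part of the conjugation machinery, ranged from 3.44 to 4.44 FPKM and Atg7, its E1-like enzyme, from 0.987 to 1.26 FPKM, with log2 fold changes of 0.05 and -0.03.

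Counted over the 38 genes, both KO values were above both WT values for 4 (Cd68, Ctsb, Lgmn and Npc1), against 10.7% of all genes tested. Both KO values were below both WT values for 2 (Hexa and Becn1), against 10% of all genes. The remaining 32 overlapped. The highest of the 4 values fell in WT replicate 2 for 22 members, in KO replicate 2 for 9, in KO replicate 1 for 7 and in WT replicate 1 for none. Within WT, replicate 2 was above replicate 1 for 34 members, and within KO for 25. After rescaling by the median ratio, which takes out what a library shares over all genes, these counts were 22 and 11. Reads of 9 members can be shared with another protein-coding gene whose span overlaps theirs (Becn1, Ctsb, Ctsd, Ctsz, Glb1, Hexa, Lamp1, Map1lc3b and Sqstm1), and for 6 of these the overlapping gene is on the opposite strand.

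**Figure D4:**
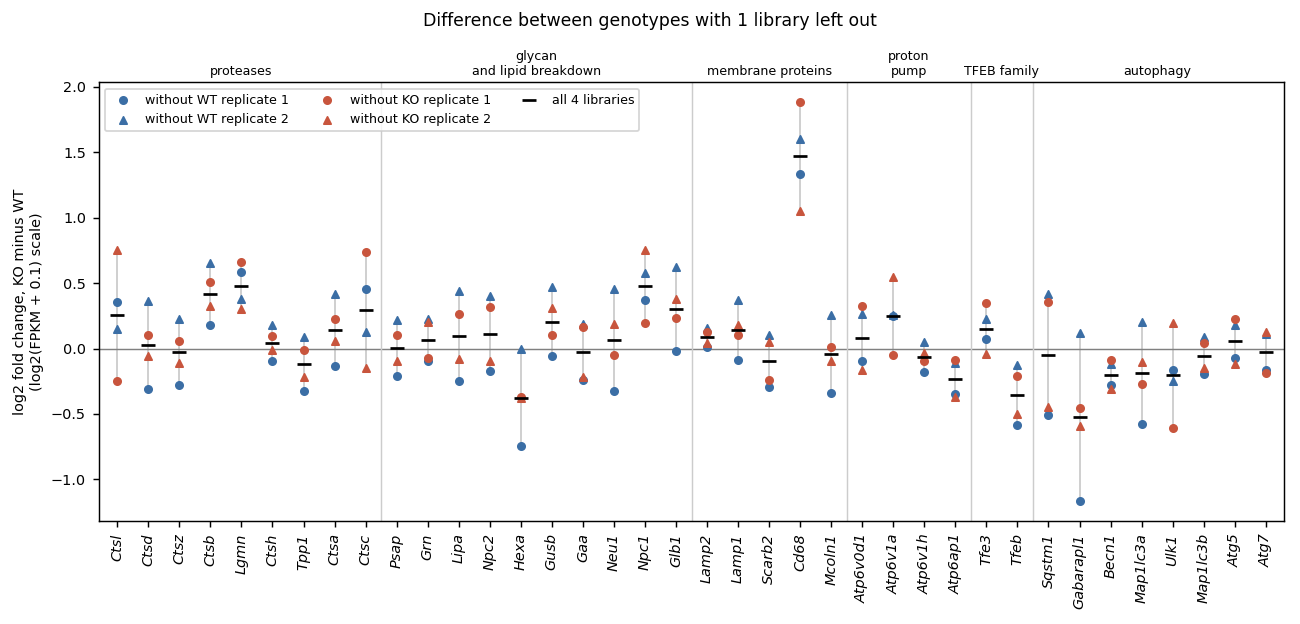
Log2 fold change of each gene (KO minus WT, log2(FPKM + 0.1) scale) with all 4 libraries (black bar) and with 1 library left out (blue for a WT and red for a KO library left out, circles for replicate 1, triangles for replicate 2, grey line for the range). The symbols of 29 genes fall on both sides of 0, and those of Cd68 run from 1.05 to 1.88.

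Which single library was in the fit decided the sign of most members. Leaving out 1 library at a time changed the sign of the estimate for 29 of the 38 members. This count was not made over all genes, so it cannot be read as particular to the members. With all 4 libraries the estimates of 27 members lay within 0.25 of 0. Estimates kept their sign for 9 members in every one of the 13 alternatives that gave a value. Tfeb is among the 9 and had no value with the filter at 1 FPKM. Leaving out a library moved the median of all genes to between -0.17 and 0.12, so the members' estimates moved beside a shift of all genes.

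Of a wider list of 171 further lysosome and autophagy genes 161 passed the filter, with 2 called higher, 1 called lower and a median log2 fold change of -0.03. The 3 calls were 1.86% of the 161, against 0.98% of all genes. Unadjusted p was under 0.05 for 5 (3.11%, against 2%). Both KO values lay above both WT values for 27 (16.8%, against 10.7%) and below for 12 (7.45%, against 10%). Among 39 other lysosomal enzymes and cofactors tested, 1 was called higher. This was cathepsin S (Ctss), a cysteine protease of antigen-presenting cells, at 2.70 and 2.50 FPKM in WT and 4.09 and 7.19 FPKM in KO. Its log2 fold change was 1.03 (95% interval 0.25 to 1.82, unadjusted p = 0.0133 and adjusted p = 1.00 from limma). Of 22 other lysosomal membrane proteins tested 1 was called higher, Laptm5, a lysosomal protein of blood cells, at 1.94 and 2.26 FPKM in WT and 3.15 and 6.43 FPKM in KO, with a log2 fold change of 1.07 (0.25 to 1.90, unadjusted p = 0.0147 and adjusted p = 1.00 from limma). As for Cd68, KO replicate 2 was the highest library for both. Per summed macrophage marker FPKM, Ctss was 0.0481 and 0.0454 in WT and 0.0592 and 0.0474 in KO and Laptm5 was 0.0346 and 0.0411 in WT and 0.0457 and 0.0424 in KO. Neither gene was called without KO replicate 2 (log2 fold changes of 0.63 and 0.57). Ctss was also not called without WT replicate 1 (1.09) or without WT replicate 2 (0.98), and Laptm5 was also not called without WT replicate 1 (0.96), with an unadjusted limma p above 0.05 in each of these fits. Slc11a1, a metal transporter of macrophage phagosomes that was singled out after its values were seen, was at 0.408 and 0.372 FPKM in WT and 0.629 and 1.19 FPKM in KO and just missed the threshold of size (log2 fold change 0.99, unadjusted p = 0.0202 and adjusted p = 1.00 from limma).

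Among 12 other cargo receptors tested, 1 was called lower. This was Stbd1, which tethers glycogen to membranes and to the autophagosome, at 3.08 and 7.10 FPKM in WT and 1.57 and 3.03 FPKM in KO. The KO libraries lay below both WT libraries, but KO replicate 2 came close to WT replicate 1, and the log2 fold change of -1.07 (unadjusted p = 0.0283 and adjusted p = 1.00 from limma) was -0.48 without WT replicate 2 and -0.61 without KO replicate 1, neither of them called. With a pseudocount of 1 none of Ctss, Laptm5 and Stbd1 was called. Of the 30 other core autophagy genes none was called. The one with the largest estimate was Atg13, a subunit of the ULK1 kinase complex, at 10.6 and 8.56 FPKM in WT and 15.1 and 19.0 FPKM in KO. Its KO libraries were both higher, and its log2 fold change of 0.82 (0.10 to 1.55, unadjusted p = 0.0289 and adjusted p = 1.00 from limma) stayed under the threshold of size.

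No gene was called among 13 other proton pump subunits tested, 19 genes of lysosomal sorting and fusion or 26 of nutrient sensing and TFEB regulation. The largest estimates in these lists were 0.40 for Atp6v0a2, a membrane-sector subunit (1.22 and 1.26 FPKM in WT, 1.75 and 1.60 FPKM in KO), -0.34 for Vps41, a subunit of the HOPS tether that fuses endosomes with lysosomes (2.99 and 3.52 FPKM in WT, 2.26 and 2.85 FPKM in KO), and 0.33 for Fnip1, a partner of folliculin (0.768 and 1.05 FPKM in WT, 1.38 and 0.978 FPKM in KO), taking only genes that averaged 1 FPKM or more. The medians of the 3 lists were -0.10, 0.00 and -0.03 on the log2 scale. An exact permutation test of 2 against 2 libraries cannot give a two-sided p below 0.333, so every call above comes from the moderated variances of limma.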

How the data were processed

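RNA-seq of whole liver from 2 WT and 2 KO samples was analysed, grouped by the labels. The authors deposited FPKM per gene, with no further scaling of the libraries described. The submitters' processing notes name HISAT2 2.0.4, StringTie 2.1.4 and the builds GRCm38 and mm10, and a BGIseq library protocol, whereas the study's methods name a stranded TruSeq kit, HISAT2 and Cufflinks. Which of the 2 descriptions holds for the deposited values is not given in the sources used here. FPKM divides by the library total, so abundant genes that change shift the others.

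A two-sided limma test (version 3.58.1, eBayes with trend, R 4.3.3) was run on log2(FPKM + 0.1) for 12346 genes whose mean reached 0.1 FPKM, and p-values were Benjamini-Hochberg adjusted over all of them. The pseudocount understates fold changes of low genes. A gene was called by the study's threshold, that is, with a log2 fold change beyond 1 or -1 at an unadjusted p under 0.05. The study used it with DESeq on read counts, so the calls here are not those of the study. The script was tested on simulated data. Depth was estimated from the steps between low FPKM values with GENCODE M21 transcript lengths, and 88.5% to 89.7% of values up to 20 reads came out within 0.1 of a whole read. Gene reads are estimates from it, and Ctsa had no length. Joining and counting used Python 3.11.15 with pandas 2.3.3.

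The members, the wider list and the marker lists were chosen with earlier results of these data known. Named outside the members are genes past the threshold, in each wider list the largest estimate among genes averaging 1 FPKM or more, and the defining cell markers. Not covered by this rule, Slc11a1 and the called markers Vsig4 and Cd5l were picked once their values had been looked at. Adgre1 was listed under an older symbol. Alternatives tried were other pseudocounts (1 and 0.01), filters (none, or 1 FPKM), median-ratio and quantile rescaling, eBayes without trend, a replicate block, voom on estimated reads and each library left out.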

Additional observations from a re-analysis of the deposited data

How the results depend on the processing

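Cd68 passed the threshold in all 13 alternatives. The count of called members was 1 in each of them (with a replicate block too), except for 2 without WT replicate 1, where Gabarapl1 was added (range 1 to 2 over the left-out libraries). With all 4 libraries kept, no member had an adjusted p under 0.05 from limma in any alternative. The median log2 fold change of the members ran from -0.17 (without WT replicate 1) to 0.22 (without WT replicate 2). For the wider list the median ran from -0.15 (without WT replicate 1) to 0.17 (without WT replicate 2) over the left-out libraries. No gene of it had an adjusted p under 0.05 from limma with all 4 libraries kept, and 0 were called at a pseudocount of 1. Among its called genes, Ctss ran from 0.63 to 1.43, Laptm5 from 0.57 to 1.57 and Stbd1 from -1.66 to -0.48 over the left-out libraries, and Stbd1 was not called without a filter on low values. Smarca4 was under the threshold of size with a pseudocount of 1 (-0.85). Both KO values lay above both WT values for 7 members and below for 3 after median-ratio rescaling. After quantile normalization these counts were 6 and 6. The shares over all genes on these 2 scales were not computed. Near 0, Atg7 (0.00705 with median-ratio and 0.0113 with quantile rescaling), Ctsz (0.00863) and Gaa (0.00688, both median-ratio) turned positive and Psap (-0.0185, quantile) negative. Over the left-out libraries 29 members changed sign, with log2 fold changes of Atg5 -0.12 to 0.23, Atg7 -0.18 to 0.13, Atp6v0d1 -0.16 to 0.33, Atp6v1a -0.0459 to 0.55, Atp6v1h -0.18 to 0.0467, Ctsa -0.13 to 0.41, Ctsc -0.15 to 0.74, Ctsd -0.31 to 0.36, Ctsh -0.0953 to 0.18, Ctsl -0.25 to 0.76, Ctsz -0.28 to 0.23, Gaa -0.24 to 0.19, Gabarapl1 -1.16 to 0.12, Glb1 -0.0155 to 0.62, Grn -0.0965 to 0.23, Gusb -0.0588 to 0.47, Lamp1 -0.0882 to 0.37, Lipa -0.25 to 0.44, Map1lc3a -0.58 to 0.20, Map1lc3b -0.19 to 0.0849, Mcoln1 -0.34 to 0.25, Neu1 -0.32 to 0.46, Npc2 -0.17 to 0.40, Psap -0.21 to 0.22, Scarb2 -0.29 to 0.10, Sqstm1 -0.51 to 0.42, Tfe3 -0.0417 to 0.35, Tpp1 -0.32 to 0.0882 and Ulk1 -0.61 to 0.20. The cause was not tested, and a fit without 1 library assumes that the lone library of that genotype varies like the others. Over all genes 121 were called, against 18 (pseudocount of 1) to 552 (without KO replicate 1). The replicate block changed no call among the members. Same-numbered libraries of the genotypes do not share a stated source, and their deviations from the group means correlated at r = 0.03 over 12346 genes. Ctsa had no value with voom and Tfeb none with the filter at 1 FPKM.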
